A study of Mus musculus with 12 samples.

Results

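The collagen gene family was described in adipocytes differentiated in culture from mouse inguinal adipose precursor cells. Its members were all genes whose symbol reads Col, a number, a and a second number, taken from probe sets that the array annotation assigns to a single gene symbol. The brightest probe set by mean over all 12 arrays stood for each gene. This gave 44 collagen genes of 22180 genes tested. Members were picked by symbol and brightness. The family and the gene lists set beside it were, however, chosen with earlier results of these data known.

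All cells carried the genotype R26Cre/Prdm16floxEx9, that is, Cre from Rosa26 together with Prdm16 alleles whose exon 9 is floxed. Prdm16 encodes a transcriptional regulator of brown and beige fat. In the growth phase they received 1 uM 4-hydroxytamoxifen (4OHT), an agent that switches on inducible forms of Cre, or ethanol (EtOH), for 3 days. They were then differentiated in medium with 10% FBS, isobutylmethylxanthine, indomethacin, dexamethasone, insulin and T3. Some of the cells were given 1 uM rosiglitazone, a drug that activates PPARgamma, the master regulator of fat cell formation. The groups were 4OHT_Rosi, EtOH_Rosi, 4OHT and EtOH, with 3 arrays each. No group lacked Cre or the floxed allele, so an action of 4OHT itself and the loss of the Prdm16 exon cannot be told apart. The labels do not say whether replicates came from separate cultures, and p-values measure only the spread between these arrays.

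The values were log2 probe-set levels between 3.05 and 13.91, and array medians lay between 5.97 and 6.05. Prdm16 averaged 6.65 in 4OHT_Rosi against 7.37 in EtOH_Rosi, a log2 difference of -0.71 (adjusted p = 0.000646, limma). Without rosiglitazone it averaged 6.46 in 4OHT against 6.63 in EtOH, which did not pass the test (difference -0.17, adjusted p = 0.455). Whether its probe set lies in the deleted exon was not examined, so this level is a limited check of the excision. Of the adipocyte markers, Adipoq, the gene of the hormone adiponectin, was higher with rosiglitazone by 0.44 after 4OHT and by 0.41 after ethanol, while Fabp4, a fatty acid carrier of adipocytes, differed by 0.04 and 0.08, not called. Group means of Fabp4 were 13.54 to 13.62, close to the highest value of 13.91, so a rise in it may not be measurable.

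Collagens are the main structural proteins of the extracellular matrix. Their alpha chains are wound into a helix inside the cell, after hydroxylation of proline and lysine, and are secreted, trimmed and crosslinked outside it. Fibrillar collagens (types I, II, III, V, XI, XXIV and XXVII) form the tensile fibres, type IV forms the network of basement membranes, and type VI forms beaded filaments that surround fat cells. Fibril-associated types such as XII, XIV and XVI bind to the fibres, and multiplexins such as XV and XVIII sit at basement membranes. Preadipocytes make a fibre-rich matrix, and adipocytes wrap themselves in a basement membrane as they mature.

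The stretches upstream of 4 fibrillar genes are shown because 3 of these genes were lower with rosiglitazone and the other, Col5a3, was higher. They come from RefSeq on mouse build GRCm38.p6, run 5′ to 3′ on the gene's own strand, and end at the base before the gene's annotated span. Capitals mark 3 promoter motifs on either strand. One is CCAAT, bound by the factor NF-Y. Another is TATAAA, the core of the TATA box. The last is the Sp1 motif GGGCGG, whose match on the other strand is written CCGCCC. Col1a2 lies on the plus strand at chr6:4505368-4505617, Col3a1 on the plus strand at chr1:45311288-45311537, Col5a1 on the plus strand at chr2:27886175-27886380 and Col5a3 on the minus strand at chr9:20815118-20815317.
Col1a2: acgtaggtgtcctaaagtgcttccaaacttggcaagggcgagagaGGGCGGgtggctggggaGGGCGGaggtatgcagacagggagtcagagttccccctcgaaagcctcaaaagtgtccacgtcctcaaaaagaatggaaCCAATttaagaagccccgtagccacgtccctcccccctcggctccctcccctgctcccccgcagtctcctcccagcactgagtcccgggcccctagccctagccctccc
Col3a1: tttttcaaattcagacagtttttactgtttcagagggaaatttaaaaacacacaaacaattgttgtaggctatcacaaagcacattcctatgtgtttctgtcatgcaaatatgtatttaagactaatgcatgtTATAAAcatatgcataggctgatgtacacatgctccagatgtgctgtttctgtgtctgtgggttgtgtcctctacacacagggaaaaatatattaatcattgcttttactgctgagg
Col5a1: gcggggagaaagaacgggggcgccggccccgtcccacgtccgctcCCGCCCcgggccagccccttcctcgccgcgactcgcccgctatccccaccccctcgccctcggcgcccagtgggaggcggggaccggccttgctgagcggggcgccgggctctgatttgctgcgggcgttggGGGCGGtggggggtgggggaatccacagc
Col5a3: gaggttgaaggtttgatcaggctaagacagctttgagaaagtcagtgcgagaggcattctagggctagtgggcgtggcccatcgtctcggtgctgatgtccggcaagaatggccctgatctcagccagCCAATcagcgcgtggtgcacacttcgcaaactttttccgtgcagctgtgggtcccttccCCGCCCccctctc
The Col3a1 stretch held 1 TATAAA and no GGGCGG, whereas those of Col1a2 and Col5a1 each held 2 GGGCGG. The Col1a2 stretch also held 1 CCAAT. The Col5a3 stretch, upstream of the gene that moved the other way, held 1 CCAAT and 1 GGGCGG. Windows of 300 bases (250 before and 50 after a start) were found for 35 of the 44 members, as 38 windows among 32851 of all genes. GGGCGG was in 60.5% of collagen windows and 35.66% of all windows, on either strand. CCAAT was in 34.2% against 37.41%, TATAAA in 13.2% against 13.62% and CAGACA in 23.7% against 21.04%. AGGTCA followed after 1 base of any kind by another AGGTCA, a repeat of the kind PPARgamma binds, was in 0 collagen windows and 0.04% of all windows. These are letter matches within the windows only.

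Rosiglitazone cultures had lower levels of the major fibre-forming and basement-membrane collagens. In these bulk samples fewer cells of a type and less RNA per cell cannot be told apart, and levels of cell type markers are given further on. After ethanol, 15 of the 44 members were lower with rosiglitazone and 2 were higher at an adjusted p under 0.05 (limma), that is 34.1% and 4.55% of members against 16.3% and 14.4% of all genes tested. After 4OHT, 12 were lower and 3 higher, 27.3% and 6.82% of members against 12.1% and 11.6% of all genes. The median difference over the members was -0.08 after ethanol and -0.04 after 4OHT, with medians over all genes of 0.01 and 0.00. The 11 genes lower in both comparisons made up 73.3% of those lower after ethanol and 91.7% of those lower after 4OHT. Matching shares over all genes were not counted, so this overlap was not shown to be particular to collagens. These 11 were Col1a1, Col1a2, Col3a1, Col4a1, Col4a2, Col4a5, Col5a1, Col5a2, Col14a1, Col18a1 and Col28a1. The 2 comparisons share no arrays, but both used the same estimate of each gene's spread, taken from all 12 arrays. Col5a3 was the 1 member higher in both. Arrays with rosiglitazone lay wholly below those without it for 13 members after 4OHT (29.5%, against 18% of all genes) and for 15 after ethanol (34.1%, against 20.9%). They lay wholly above for 6 members in each comparison (13.6%, against 18.1% of all genes after 4OHT and 19.9% after ethanol).

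**Figure D1:**
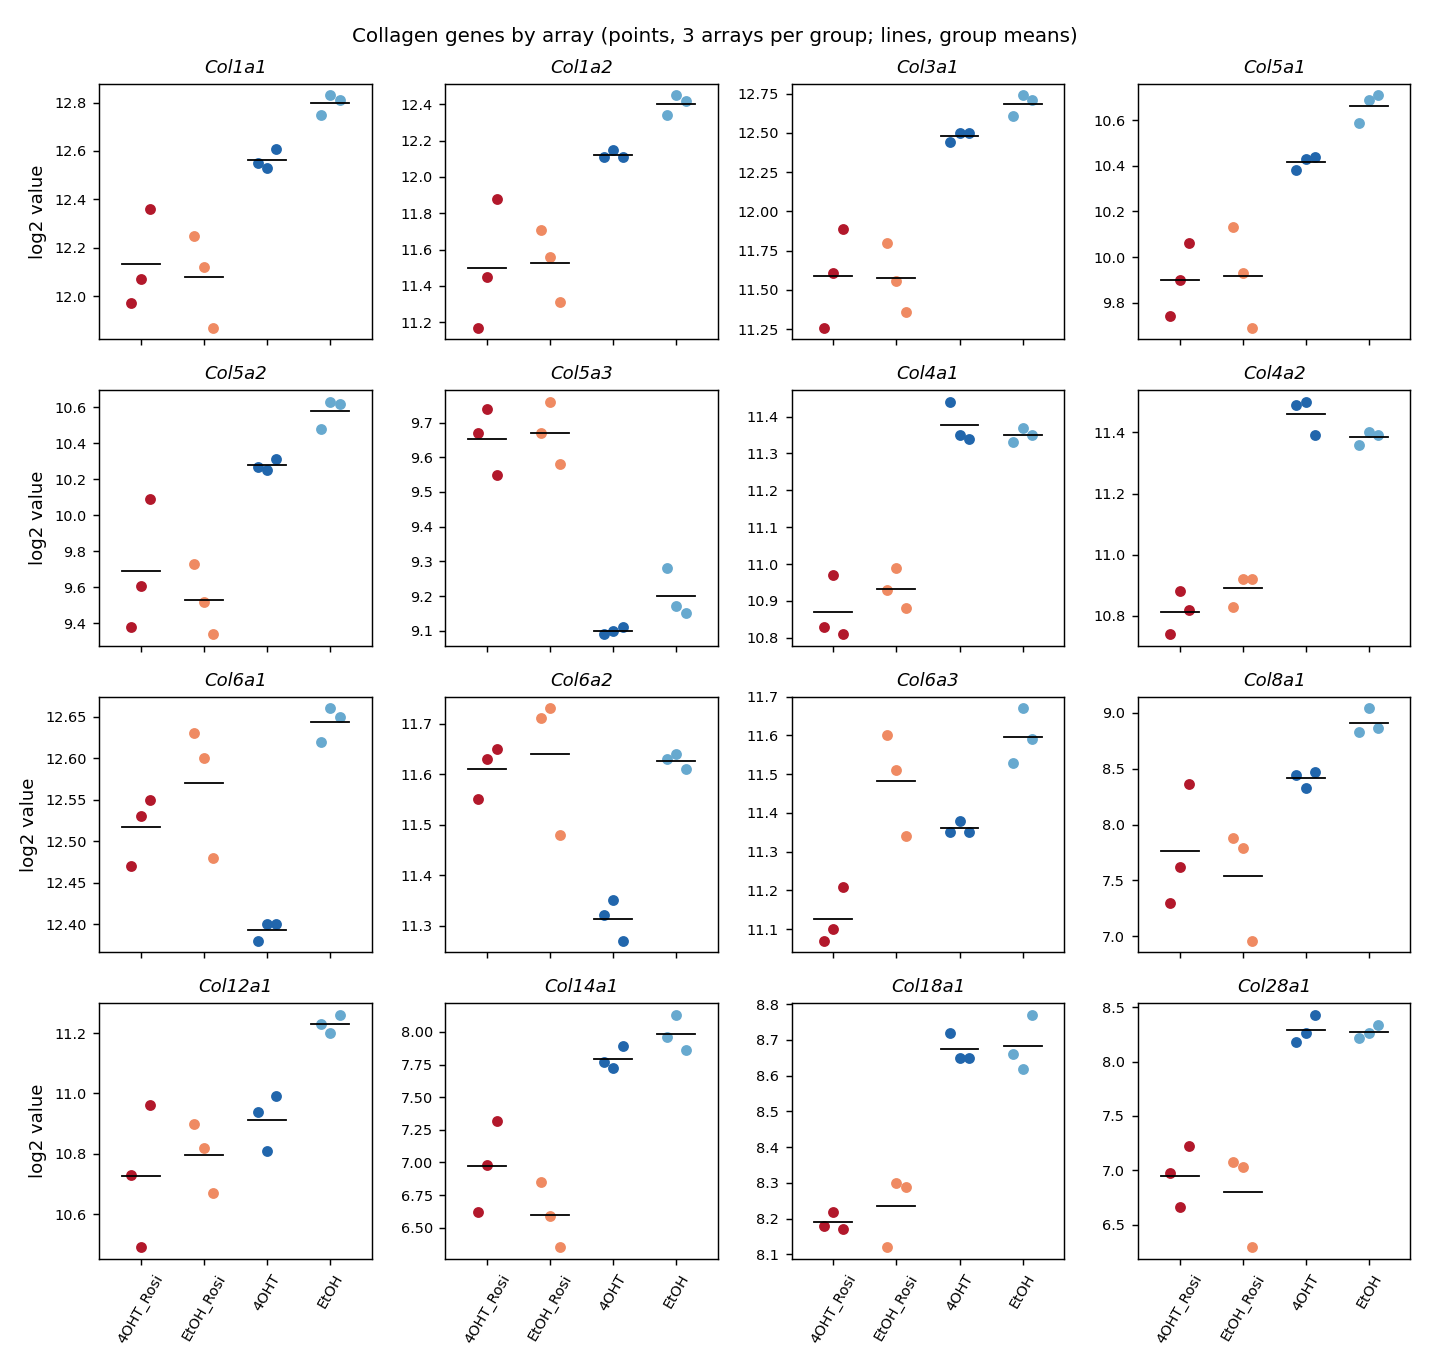
Log2 probe-set level of 16 collagen genes on each of the 12 arrays, 1 panel per gene, with points for arrays and groups ordered 4OHT_Rosi, EtOH_Rosi, 4OHT and EtOH. Col1a1, Col1a2 and Col3a1 lie lower on all 6 rosiglitazone arrays than on all 6 arrays without it, Col5a3 lies higher, and Col6a1 stays between 12.38 and 12.66.

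Type I collagen, the main protein of tensile fibres, was lower with rosiglitazone in both of its chains. Col1a1, its alpha 1 chain, read 11.97, 12.07 and 12.36 on the 4OHT_Rosi arrays and 12.25, 12.12 and 11.87 on the EtOH_Rosi arrays, against 12.55, 12.53 and 12.61 on the 4OHT arrays and 12.75, 12.83 and 12.81 on the EtOH arrays. Every rosiglitazone array lay below every array without it. The log2 difference was -0.43 ± 0.10 (SE) after 4OHT (adjusted p = 0.00718, limma) and -0.72 ± 0.10 after ethanol (adjusted p = 9.82e-05), or 1.35-fold and 1.64-fold lower. Col1a2, its alpha 2 chain, read 11.17, 11.45 and 11.88 in 4OHT_Rosi and 11.71, 11.56 and 11.31 in EtOH_Rosi, against 12.11, 12.15 and 12.11 in 4OHT and 12.34, 12.45 and 12.42 in EtOH. Again no rosiglitazone array reached the range of those without it. Its differences were -0.62 ± 0.14 after 4OHT (adjusted p = 0.00495) and -0.88 ± 0.14 after ethanol (adjusted p = 0.000253). A second, dimmer Col1a2 probe set gave -0.49 and -0.79.

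Types III and V, which are built into the same fibres as type I, followed a like pattern in 3 of their 4 chains. Col3a1, the single chain of type III collagen, read 11.26, 11.61 and 11.89 in 4OHT_Rosi and 11.80, 11.56 and 11.36 in EtOH_Rosi, against 12.44, 12.50 and 12.50 in 4OHT and 12.61, 12.74 and 12.71 in EtOH. The groups with and without rosiglitazone did not overlap, and the differences were -0.89 ± 0.13 after 4OHT (adjusted p = 0.000226, limma) and -1.11 ± 0.13 after ethanol (adjusted p = 2.16e-05). Col5a2, a chain of type V collagen, which nucleates fibrils, read 9.38, 9.61 and 10.09 in 4OHT_Rosi and 9.73, 9.52 and 9.34 in EtOH_Rosi, against 10.27, 10.25 and 10.31 in 4OHT and 10.48, 10.63 and 10.62 in EtOH. The third 4OHT_Rosi array came closest to the range without rosiglitazone and did not enter it. Col5a2 was lower by 0.58 on the log2 scale after 4OHT (adjusted p = 0.00824) and by 1.05 after ethanol (adjusted p = 6.25e-05). Col3a1 and Col5a2 are neighbours on chromosome 1 with 24624 bases between them.

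Col5a1, the main chain of type V, read 9.74, 9.90 and 10.06 in 4OHT_Rosi and 10.13, 9.93 and 9.69 in EtOH_Rosi, against 10.38, 10.43 and 10.44 in 4OHT and 10.59, 10.69 and 10.71 in EtOH. No array of either rosiglitazone group reached the levels without it. The differences were -0.52 ± 0.10 after 4OHT (adjusted p = 0.00184, limma) and -0.75 ± 0.10 after ethanol (adjusted p = 6.14e-05). A second Col5a1 probe set, dim at a mean of 6.54, did not show this, with differences of 0.02 and 0.01. Col5a3, the third type V chain, moved in the opposite direction. It read 9.67, 9.74 and 9.55 in 4OHT_Rosi and 9.67, 9.76 and 9.58 in EtOH_Rosi, against 9.09, 9.10 and 9.11 in 4OHT and 9.28, 9.17 and 9.15 in EtOH. All rosiglitazone arrays were above all others, by 0.55 ± 0.07 after 4OHT (adjusted p = 3.81e-05) and 0.47 ± 0.07 after ethanol (adjusted p = 9.19e-05). Of the 11 fibrillar genes, 5 were lower and 1 higher after 4OHT, and 6 were lower and 1 higher after ethanol. The sixth was Col24a1, at -0.22 (adjusted p = 0.0467), a call that was lost under 13 of 20 alternative settings, among them leaving out EtOH 2, EtOH 3, 4OHT 1, 4OHT 2, EtOH_Rosi 2, EtOH_Rosi 3 or 4OHT_Rosi 1 (differences from -0.30 to -0.18 over the alternatives, adjusted p up to 0.179). The cartilage fibril genes Col2a1, Col11a1 and Col11a2 and the related Col27a1 were not called, with differences between -0.31 and 0.20. Col11a1 was lower after ethanol without EtOH 1 (-0.43, adjusted p = 0.0152), EtOH_Rosi 1 (-0.39, adjusted p = 0.0406) or 4OHT_Rosi 1 (-0.31, adjusted p = 0.0457). Without 4OHT_Rosi 2, Col11a2 was higher after 4OHT, at 0.23 (adjusted p = 0.048).

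**Figure D2:**
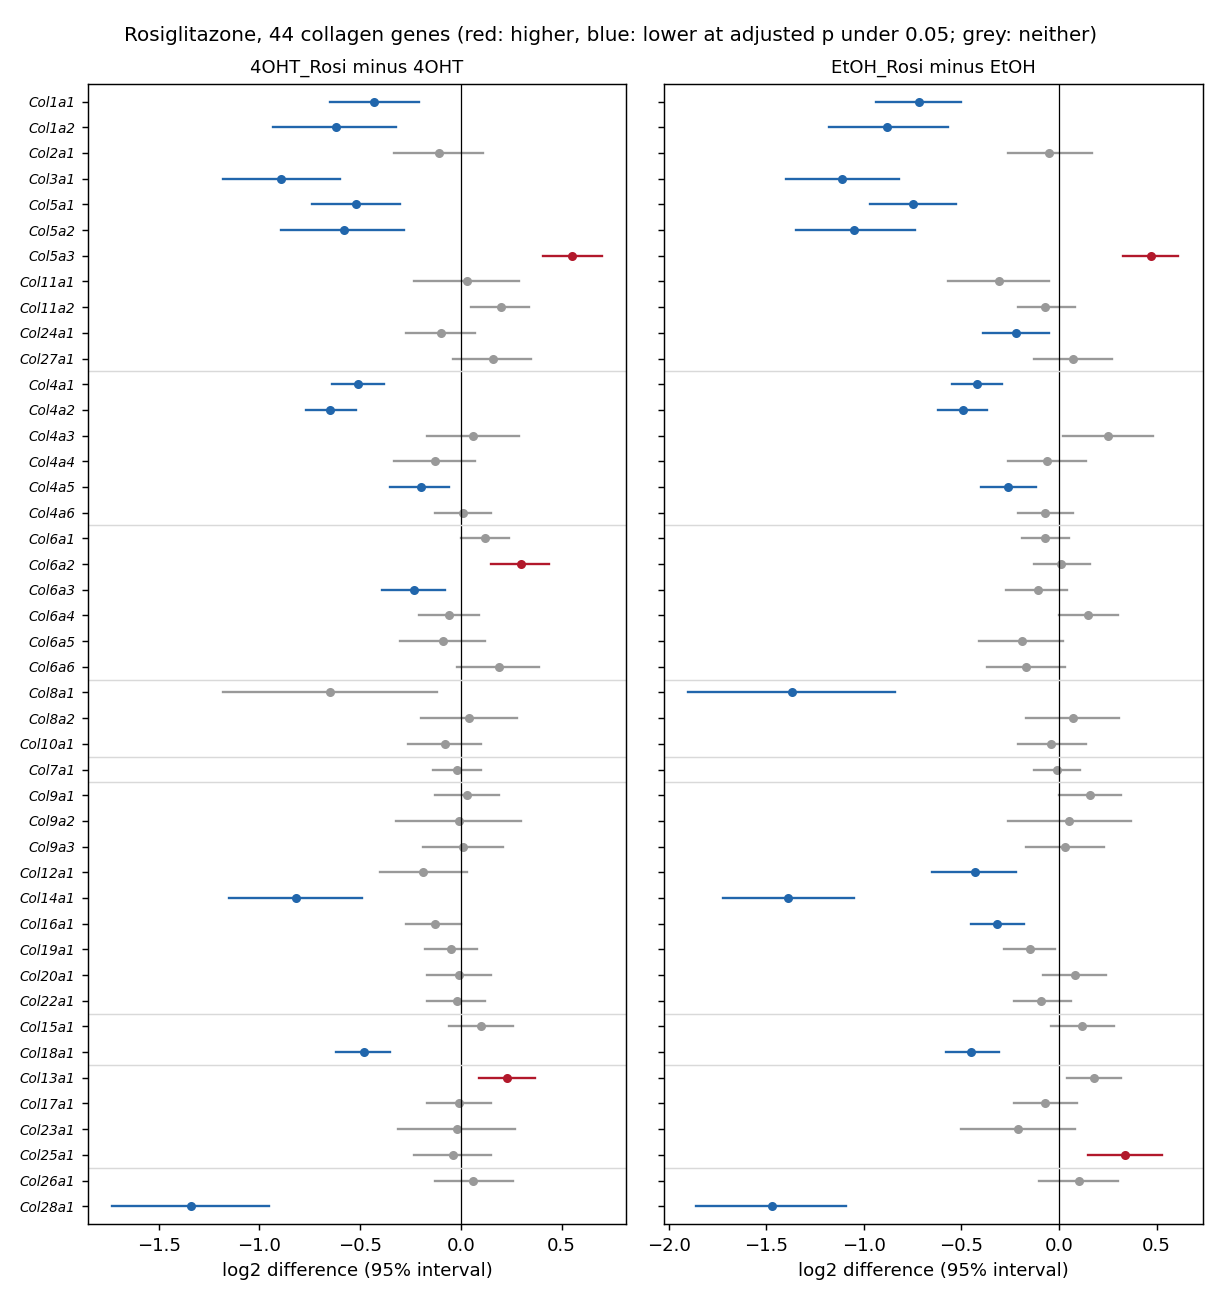
Log2 difference between rosiglitazone-treated and untreated cells for the collagen genes, after 4OHT and after ethanol, with 95% confidence intervals from the limma fit. Col28a1, Col14a1, Col8a1 and Col3a1 lie furthest below 0 after ethanol, and Col5a3 lies above 0 in both comparisons.

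The major chains of basement-membrane type IV collagen were lower as well. Col4a1 and Col4a2, which together form the common type IV molecule, lie head to head on chromosome 8, with annotated starts 21 bases apart. Col4a1 read 10.83, 10.97 and 10.81 in 4OHT_Rosi and 10.93, 10.99 and 10.88 in EtOH_Rosi, against 11.44, 11.35 and 11.34 in 4OHT and 11.33, 11.37 and 11.35 in EtOH. Col4a2 read 10.74, 10.88 and 10.82 in 4OHT_Rosi and 10.83, 10.92 and 10.92 in EtOH_Rosi, against 11.49, 11.50 and 11.39 in 4OHT and 11.36, 11.40 and 11.39 in EtOH. Every rosiglitazone array lay below every other array for both genes. After 4OHT the differences were -0.51 for Col4a1 (adjusted p = 3.3e-05, limma) and -0.65 for Col4a2 (adjusted p = 3.04e-06), each with an SE of 0.06. After ethanol they were -0.42 and -0.49, also with an SE of 0.06 (adjusted p = 0.000105 and 1.83e-05). Col4a5, a chain of a rarer type IV network, differed by -0.20 after 4OHT (adjusted p = 0.0419) and -0.26 after ethanol (adjusted p = 0.00831). Its call after 4OHT was lost under 12 of 21 alternative settings, with differences from -0.27 to -0.16 and adjusted p up to 0.176 over the alternatives. It was lost with a replicate block, fitting only the groups compared, an intensity trend, quantile normalization and median centring. Leaving out EtOH 2, 4OHT 1, 4OHT 3, EtOH_Rosi 1, EtOH_Rosi 2, 4OHT_Rosi 1 or 4OHT_Rosi 2 also lost it. The 3 remaining type IV chains, Col4a3, Col4a4 and Col4a6, were not called in either comparison, with differences from -0.13 to 0.25. Without EtOH 3, Col4a3 was higher with rosiglitazone after ethanol, at 0.37 (adjusted p = 0.0117). On single arrays Col4a5 read 7.27, 7.16 and 7.30 in 4OHT_Rosi and 7.30, 7.36 and 7.32 in EtOH_Rosi, against 7.54, 7.32 and 7.48 in 4OHT and 7.65, 7.57 and 7.54 in EtOH. No 4OHT_Rosi array reached the 4OHT range and no EtOH_Rosi array the EtOH range.

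The multiplexins, which sit at basement membranes, split. Col18a1, whose C-terminal fragment is endostatin, read 8.18, 8.22 and 8.17 in 4OHT_Rosi and 8.12, 8.30 and 8.29 in EtOH_Rosi, against 8.72, 8.65 and 8.65 in 4OHT and 8.66, 8.62 and 8.77 in EtOH. Every rosiglitazone array lay below every array without it, by 0.48 after 4OHT (adjusted p = 8.11e-05, limma) and by 0.45 after ethanol (adjusted p = 9.71e-05). Col15a1 was not called, at 0.10 and 0.12.

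Of all 44 members, Col28a1 had the lowest difference in both comparisons. Col28a1, a short beaded collagen best known from peripheral nerve, read 6.97, 6.66 and 7.22 in 4OHT_Rosi and 7.08, 7.03 and 6.29 in EtOH_Rosi, against 8.18, 8.26 and 8.43 in 4OHT and 8.22, 8.26 and 8.34 in EtOH. Its highest array with rosiglitazone, at 7.22, lay about a log2 unit below its lowest array without it, at 8.18. The differences were -1.34 ± 0.18 after 4OHT (adjusted p = 9.09e-05, limma) and -1.47 ± 0.18 after ethanol (adjusted p = 2.43e-05), or 2.53-fold and 2.78-fold lower. Col14a1, a fibril-associated collagen of skin and tendon, read 6.62, 6.98 and 7.32 in 4OHT_Rosi and 6.85, 6.59 and 6.35 in EtOH_Rosi, against 7.77, 7.72 and 7.89 in 4OHT and 7.96, 8.13 and 7.86 in EtOH. The groups did not overlap, at differences of -0.82 ± 0.15 after 4OHT (adjusted p = 0.00135) and -1.39 ± 0.15 after ethanol (adjusted p = 1.13e-05).

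Some members passed the test in 1 of the 2 rosiglitazone comparisons. Col8a1, a short-chain collagen of vessel walls, read 7.30, 7.62 and 8.36 in 4OHT_Rosi and 7.88, 7.79 and 6.96 in EtOH_Rosi, against 8.44, 8.33 and 8.47 in 4OHT and 8.83, 9.04 and 8.86 in EtOH. Its difference was -1.37 ± 0.25 after ethanol (adjusted p = 0.000639, limma). After 4OHT it was -0.65 and did not pass the test (adjusted p = 0.0744), and the third 4OHT_Rosi array lay within the 4OHT range. It passed at -0.65 without EtOH_Rosi 3 (adjusted p = 0.0248) and at -0.95 without 4OHT_Rosi 3 (adjusted p = 0.00505). Other fibril-associated genes were called in the ethanol comparison and not in the other. Col12a1, which coats type I fibrils, read 10.73, 10.49 and 10.96 in 4OHT_Rosi and 10.90, 10.82 and 10.67 in EtOH_Rosi, against 10.94, 10.81 and 10.99 in 4OHT and 11.23, 11.20 and 11.26 in EtOH. The EtOH_Rosi arrays lay below the EtOH arrays, by 0.43 (adjusted p = 0.00429), whereas 4OHT_Rosi overlapped 4OHT, at -0.19, which became -0.30 and passed without 4OHT_Rosi 3 (adjusted p = 0.0264). Col16a1, a minor collagen of skin and vessels, read 7.01, 7.05 and 7.01 in 4OHT_Rosi and 6.99, 7.09 and 7.10 in EtOH_Rosi, against 7.07, 7.21 and 7.19 in 4OHT and 7.28, 7.42 and 7.43 in EtOH. It was lower by 0.32 after ethanol (adjusted p = 0.00131) and differed by -0.13 after 4OHT, not called. Of the 4 transmembrane collagens, 1 was higher after 4OHT and another after ethanol, while Col17a1 and Col23a1 were called in neither comparison. Without EtOH 1, Col23a1 was lower after ethanol, at -0.39 (adjusted p = 0.0105). Col13a1, found at cell junctions, read 6.92, 6.94 and 6.75 in 4OHT_Rosi and 6.91, 6.88 and 6.94 in EtOH_Rosi, against 6.59, 6.65 and 6.68 in 4OHT and 6.70, 6.82 and 6.67 in EtOH. It was higher after 4OHT at 0.23 (adjusted p = 0.0198), and after ethanol it differed by 0.18, not called, though it passed without EtOH 2 (adjusted p = 0.0337) or 4OHT_Rosi 3 (adjusted p = 0.0283). Col25a1, a neuronal collagen, was higher after ethanol at 0.34 (adjusted p = 0.00912). Without 4OHT 1, 4OHT 2, 4OHT_Rosi 1 or 4OHT_Rosi 2 the Col13a1 call was lost (adjusted p up to 0.0814), and without both EtOH_Rosi 3 and 4OHT_Rosi 3 that of Col25a1 was (adjusted p = 0.051). A call in one comparison and not in the other does not show that the responses differ. The test of that difference, the interaction, called 0 of the 44 members (limma), against 0.482% of all genes lower and 0.523% higher. An unadjusted p under 0.05 was found for 7 of the 44 members and for 3106 of the 22180 genes tested. The highest interaction values were 0.71 for Col8a1 (adjusted p = 0.386), 0.57 for Col14a1 (adjusted p = 0.249) and 0.46 for Col5a2 (adjusted p = 0.315). Unadjusted, the p of Col8a1 was 0.0608. The lowest value was -0.38 for Col25a1 (adjusted p = 0.182), which had the smallest unadjusted p of the members, at 0.00964.

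Type VI collagen, the beaded filament around fat cells, was the class in which 4OHT comparisons had calls in the fit across all groups. Members of other classes were called in some alternative fits, as given further on. Without rosiglitazone, 2 of the 44 members were lower in 4OHT than in EtOH and 0 were higher (limma), 4.55% and 0% of members against 1.79% and 2.13% of all genes. The 2 were Col6a1 and Col6a2, the alpha 1 and alpha 2 chains, which lie 85161 bases apart on chromosome 10. Col6a2 read 11.32, 11.35 and 11.27 in 4OHT, against 11.63, 11.64 and 11.61 in EtOH. All 4OHT arrays were below all EtOH arrays, by 0.31 ± 0.07 (adjusted p = 0.0199), a fold of 1.24. Col6a1 read 12.38, 12.40 and 12.40 in 4OHT, against 12.62, 12.66 and 12.65 in EtOH. Here too the groups did not overlap, at a difference of -0.25 ± 0.06 (adjusted p = 0.022), and a second Col6a1 probe set gave -0.22. The differences hardly moved when single arrays were left out, from -0.33 to -0.29 for Col6a2 and from -0.26 to -0.24 for Col6a1, but the calls did not hold. Col6a2 lost its call without any 1 of the 6 arrays compared (adjusted p up to 0.0901), and Col6a1 lost it without EtOH 2, EtOH 3 or any 4OHT array, with a replicate block (adjusted p = 0.0525) and with all probe sets averaged (adjusted p = 0.178).

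With rosiglitazone, Col6a3, the large alpha 3 chain whose C-terminal fragment is endotrophin, was the 1 member lower in 4OHT_Rosi than in EtOH_Rosi, and 0 were higher (limma), 2.27% and 0% of members against 3.38% and 4.65% of all genes. It read 11.07, 11.10 and 11.21 in 4OHT_Rosi, against 11.60, 11.51 and 11.34 in EtOH_Rosi. The arrays did not overlap, at -0.36 ± 0.07 (adjusted p = 0.00728), a call lost when only these 2 groups were fitted (adjusted p = 0.0565). In the same cells Col6a1 differed by -0.05 and Col6a2 by -0.03, neither called. Without rosiglitazone Col6a3 read 11.35, 11.38 and 11.35 in 4OHT, against 11.53, 11.67 and 11.59 in EtOH, a difference of -0.24 that did not pass the test (adjusted p = 0.0927). Rosiglitazone itself gave -0.23 for Col6a3 after 4OHT (adjusted p = 0.0291) and -0.11 after ethanol, not called. The call after 4OHT was lost without any 1 of the 4OHT arrays and without 4OHT_Rosi 1 or 4OHT_Rosi 2 (adjusted p up to 0.102). It was also lost with a replicate block (adjusted p = 0.0515) and with median centring (adjusted p = 0.0549). Col6a2 was higher with rosiglitazone after 4OHT, at 0.30 (adjusted p = 0.00549), and differed by 0.01 after ethanol. The interaction for Col6a2 was 0.28 (adjusted p = 0.194), so the rosiglitazone responses of Col6a2 were not shown to differ. Col6a4, Col6a5 and Col6a6, the other type VI chains, were not called in any comparison.

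Beyond these calls, many members lay slightly lower after 4OHT without rosiglitazone. The difference was below 0 for 37 of 44 members, with a median of -0.10 against 0.00 over all genes, and for 14 of them (31.8%, against 11.7% of all genes) no 4OHT array overlapped the EtOH arrays. For 1 member (2.3%, against 11.2% of all genes) they lay apart in the other direction. Values of members that did not pass the test were -0.23 for Col1a1 (adjusted p = 0.279, limma), -0.28 for Col1a2 (adjusted p = 0.36), -0.25 for Col5a1 (adjusted p = 0.24), -0.32 for Col12a1 (adjusted p = 0.114) and -0.50 for Col8a1 (adjusted p = 0.351). Col4a1 and Col4a2, at 0.03 and 0.08, did not lie lower. When only the EtOH and 4OHT arrays were fitted, 9 members were lower, among them Col1a1, Col1a2, Col5a1, Col5a2, Col8a1 and Col12a1 (20.5% of members against 2.8% of all genes). With rosiglitazone the difference was below 0 for 30 members, and 3 (6.8%, against 10.3% of all genes) had arrays that lay apart and lower, while 0 lay apart and higher, against 11.5% of all genes. Here Col1a1 differed by 0.05, Col1a2 by -0.03 and Col3a1 by 0.01.

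**Figure D3:**
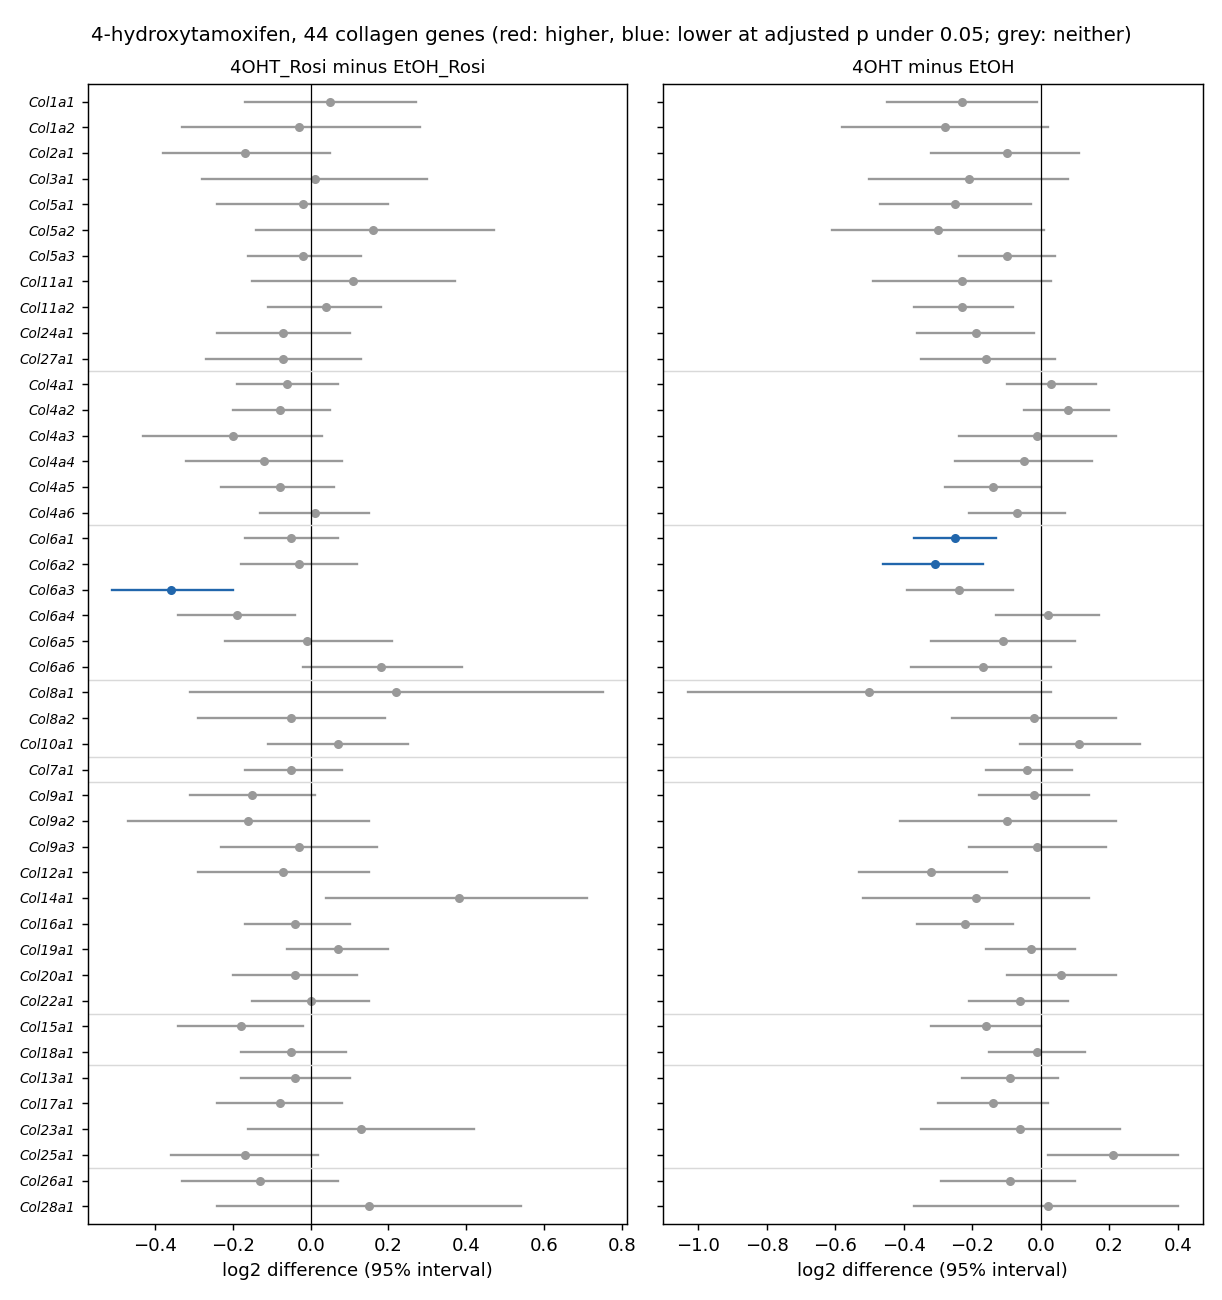
Log2 difference between 4OHT-treated and ethanol-treated cells for the collagen genes, with and without rosiglitazone, with 95% confidence intervals from the limma fit. Without rosiglitazone 37 of 44 points lie below 0, and Col6a1 and Col6a2 pass the test, while with rosiglitazone Col6a3 does.

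The arrays of the rosiglitazone groups were more spread for these genes than those of the other groups. Over the 15 members lower after ethanol, the median SD was 0.20 in 4OHT_Rosi and 0.19 in EtOH_Rosi, against 0.06 in 4OHT and 0.06 in EtOH, while over all genes it was 0.09, 0.09, 0.07 and 0.08. The third 4OHT_Rosi array was the highest of its group for 10 of the 15 members, and 4OHT_Rosi 1 the lowest for 9. The third EtOH_Rosi array was the lowest of its group for 10, and EtOH_Rosi 1 the highest for 10. In the 4OHT group 4OHT 3 was the highest for 9 and 4OHT 2 the lowest for 8, and in the EtOH group EtOH 2 was the highest for 9 and EtOH 1 the lowest for 11. In the fit across all groups this spread enters every comparison, including that of 4OHT with EtOH.

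Many genes that serve collagen were also lower with rosiglitazone. Their lists were chosen with earlier results of these data known, which limits what their shares can show. Of 13 measured procollagen-modifying enzymes, 9 were lower after 4OHT and 11 after ethanol (limma), with median differences of -0.27 and -0.49. They include Plod2, a lysyl hydroxylase, at -0.76 and -0.74, and Crtap, a partner of prolyl 3-hydroxylation, at -0.63 and -0.77. Of 11 processing and crosslinking genes, 7 were lower after 4OHT and 9 after ethanol, with medians of -0.49 and -0.52. Among these, Pcolce2, an enhancer of procollagen C-proteinase, stood at -1.48 and -0.96, Bmp1, that proteinase, at -0.53 and -0.89, and Loxl1, a lysyl oxidase, at -0.62 and -0.64. Of 10 chaperone and secretion genes, 5 and 8 were lower, including Serpinh1, the collagen chaperone HSP47, at -0.45 and -0.67. The count of 5 became 3 without 4OHT 2 or 4OHT 3, 2 without 4OHT_Rosi 1 and 1 without 4OHT_Rosi 2. The share of all genes lower is 12.1% after 4OHT and 16.3% after ethanol, as above.

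Genes for collagen receptors, degrading enzymes and fibril-binding proteoglycans were among those lower. Over all genes 12.1% were lower and 11.6% higher after 4OHT, and 16.3% lower and 14.4% higher after ethanol. Of 8 receptors, 4 were lower after 4OHT and 7 after ethanol (limma), with medians of -0.35 and -0.54. Without both 4OHT_Rosi 3 and EtOH_Rosi 3 the first count became 7. Itga1, an integrin chain that binds collagen, stood at -0.93 and -1.07, and Ddr2, a receptor kinase for fibrillar collagen, at -0.69 and -0.61. Of 10 genes that cleave collagen or take up its fragments, 6 and 8 were lower, with medians of -0.61 and -0.79. Fap, a surface protease of fibroblasts, stood at -1.28 and -1.75, Ctsk, the collagen-cleaving cathepsin K, at -1.16 and -1.10, and Mmp14, a membrane collagenase, at -0.91 and -1.09. Of 10 small leucine-rich proteoglycans, which bind collagen fibrils, 5 and 8 were lower, among them Ogn at -1.16 and -1.66 and Lum at -1.19 and -1.36. Of 14 TGF-beta pathway genes, which include the best-known inducers of collagen, 8 were lower and 1 higher after 4OHT, and 12 were lower and 1 higher after ethanol. Tgfb3, a ligand, stood at -1.19 and -1.28, and Tgfbr3, a co-receptor, at -0.66 in both, while Smad2, a signal transducer named here after its values were seen, was higher at 0.24 and 0.20. The Smad2 call after ethanol was lost without EtOH 2, EtOH 3, EtOH_Rosi 1 or EtOH_Rosi 2 (differences from 0.15 to 0.25, adjusted p up to 0.115).

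**Figure D4:**
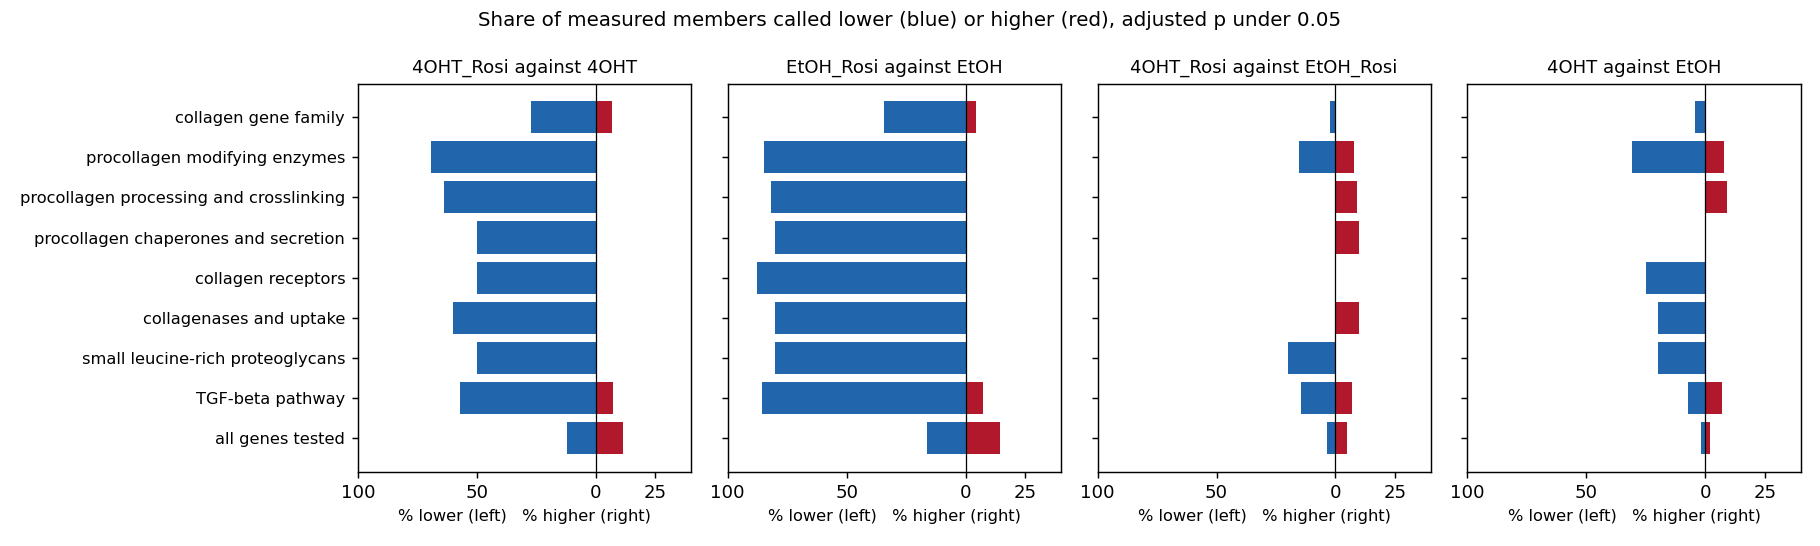
Share of measured genes called lower or higher, in percent, for the collagen family, for each companion list and for all genes tested. Panels compare 4OHT_Rosi with 4OHT, EtOH_Rosi with EtOH, 4OHT_Rosi with EtOH_Rosi, and 4OHT with EtOH. With rosiglitazone against without it, the 7 companion lists lie at or above 50% lower after 4OHT and after ethanol, against 12.1% and 16.3% of all genes.

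Between 4OHT and ethanol, the modifying enzymes had 2 genes lower and 1 higher with rosiglitazone, and 4 lower and 1 higher without it. Over all genes 3.38% were lower and 4.65% higher with rosiglitazone, and 1.79% and 2.13% without it. Without rosiglitazone 2 of 8 receptors, 2 of 10 cleaving or uptake genes and 2 of 10 proteoglycans were lower. Of 14 TGF-beta pathway genes, 1 was lower and 1 higher there, and 1 of 11 processing genes was higher. With rosiglitazone 2 proteoglycans and 2 pathway genes were lower, and the processing, chaperone, cleaving or uptake and pathway lists had 1 higher each. Several of these counts fell to 0 without single arrays. Plod2 was lower both with rosiglitazone, at -0.74 (adjusted p = 0.000169, limma), and without it, at -0.71 (adjusted p = 0.000415). Ogn, a proteoglycan, was lower by 0.40 with rosiglitazone (adjusted p = 0.0113) and by 0.90 without it (adjusted p = 6.67e-05). Plod1, another lysyl hydroxylase, was lower by 0.35 with rosiglitazone (adjusted p = 0.00286), and P3h4, a partner of collagen hydroxylases, was higher by 0.31 (adjusted p = 0.00288). Without rosiglitazone Pcolce2 was higher by 0.75 (adjusted p = 0.000235) and Ltbp1, which anchors latent TGF-beta, was higher by 0.56 (adjusted p = 0.00549). Fap was lower there by 0.61 (adjusted p = 0.0102) and Mmp9, a gelatinase, by 0.68 (adjusted p = 0.00851). Without EtOH 1, EtOH 2, 4OHT 2 or 4OHT 3 the 4 lower enzymes became 1, and without 4OHT 1 they became 2, while the higher one, P3h4, was lost without EtOH 2, EtOH 3, 4OHT 1 or 4OHT 3.

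Markers of several cell types were also lower with rosiglitazone, beside 12.1% of all genes lower and 11.6% higher after 4OHT, and 16.3% lower and 14.4% higher after ethanol. The mean level of 6 adipose progenitor markers, including Pdgfra and Cd34, ranged over 8.41 to 8.78 in 4OHT_Rosi and 8.41 to 8.62 in EtOH_Rosi, against 9.58 to 9.71 in 4OHT and 9.58 to 9.69 in EtOH, and 5 of the 6 were lower with rosiglitazone in both comparisons. The mean of 6 smooth muscle and myofibroblast markers ranged over 8.83 to 9.23 in 4OHT_Rosi and 8.12 to 8.55 in EtOH_Rosi, against 9.42 to 9.47 in 4OHT and 9.21 to 9.47 in EtOH, with 4 of the 6 lower after 4OHT and all 6 lower after ethanol. Endothelial markers (5 genes) ranged over 8.54 to 8.83 and 8.49 to 8.67 in the same rosiglitazone groups, against 9.16 to 9.26 and 9.27 to 9.39 without it. Macrophage markers (5 genes) ranged over 7.92 to 7.98 in 4OHT_Rosi and 7.91 to 8.06 in EtOH_Rosi, against 8.16 to 8.33 in 4OHT and 8.40 to 8.76 in EtOH. The mean of 5 chondrocyte markers lay between 5.52 and 5.86 over all arrays, and 1 of them, Comp, was lower with rosiglitazone, by 0.48 after 4OHT and 0.74 after ethanol. The mean of 3 Schwann cell markers lay between 5.87 and 6.06, with Mbp higher by 0.57 after 4OHT and 0.48 after ethanol and Cdh19 lower by 0.60 and 0.40. Without EtOH 2 the Cdh19 call after ethanol was lost (adjusted p = 0.058). The mean of 4 mesothelial markers went the other way, at 5.89 to 6.01 in 4OHT_Rosi and 6.15 to 6.28 in EtOH_Rosi, against 5.81 to 5.85 in 4OHT and 5.74 to 5.89 in EtOH. Of these, 1 was higher with rosiglitazone after 4OHT and 2 after ethanol, with Krt19 at 0.47 and 0.91. Comp, Mbp, Cdh19 and Krt19 were named after their values were seen. The mean of 6 adipocyte markers stood at 11.35 to 11.51 in 4OHT_Rosi and 11.19 to 11.37 in EtOH_Rosi, against 11.49 to 11.55 in 4OHT and 11.39 to 11.47 in EtOH. Of these 6, 2 were higher and 1 lower with rosiglitazone after 4OHT, and 3 were higher and 1 lower after ethanol, the lower one being Lep, the leptin gene, in both, a gene named after its values were seen. Lep differed by -3.37 after 4OHT and -3.57 after ethanol. Cidec, another of the 6 and also named after its values were seen, was higher by 2.19 and 1.89. The adipocyte mean therefore mixes large opposite changes and is not a measure of the share of adipocytes. Of 4 cell-cycle genes, 4 were lower with rosiglitazone in both comparisons.

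Markers also differed between 4OHT and ethanol, beside 3.38% of all genes lower and 4.65% higher with rosiglitazone, and 1.79% lower and 2.13% higher without it. Of the 6 smooth muscle and myofibroblast markers, 3 were higher in 4OHT_Rosi than in EtOH_Rosi and 0 lower (limma), with a median difference of 0.57. All 6 had an unadjusted p under 0.05, as did 4596 of the 22180 genes tested. The 3 higher markers became 5 without EtOH_Rosi 1. Without rosiglitazone 2 of them were higher in 4OHT than in EtOH, and 1 without EtOH 1, 4OHT 1 or 4OHT 2. Of the 6 progenitor markers, 1 was lower in 4OHT_Rosi than in EtOH_Rosi, Pdgfra at -0.39, a call lost without EtOH_Rosi 1, 4OHT_Rosi 1 or 4OHT_Rosi 2 (adjusted p up to 0.068). Without rosiglitazone Pi16 was higher in 4OHT by 1.02 and Pdgfra lower by 0.53, both named after their values were seen. Of the 4 mesothelial markers, 2 were lower in 4OHT_Rosi than in EtOH_Rosi. Of the 4 cell-cycle genes, 1 was lower in 4OHT_Rosi than in EtOH_Rosi, a call lost without any 1 EtOH array, 4OHT 3, EtOH_Rosi 1, EtOH_Rosi 2, 4OHT_Rosi 1 or 4OHT_Rosi 2, and 4 were lower in 4OHT than in EtOH. The part of these markers in the collagen differences was not tested.

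Across the 4 comparisons between groups, 21 collagen genes were called at least once and 23 were not, with differences between -0.31 and 0.25 among those not called. Of the 27 members whose mean was at or above that of the median gene (6.60), 19 were called, against 2 of the 17 dimmer ones, Col24a1 and Col25a1. Matching shares over all genes were not counted for these calls, so the counts do not set collagens apart from other genes. The 8 brighter members that were not called were Col2a1, Col9a2, Col15a1, Col17a1, Col20a1, Col23a1, Col26a1 and Col27a1. For dim probe sets the array signal limits what a difference can show, so a member without a call was not shown to be unchanged.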

How the data were processed

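Expression was measured on Affymetrix arrays, 12 in all and 3 per group. The authors deposited log2 probe-set values with 2 decimals, made with Affymetrix Expression Console, per the submitters' processing notes. The version, the way probes were summarised and how arrays were normalized were not given in the sources used here. No raw intensity was used here.

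Of 41345 probe sets, 23521 had 1 gene symbol, 1814 several and 16010 none, per the array annotation, and 23328 of those with 1 were matched to RefSeq, which updated old symbols. The brightest probe set per gene by mean over the arrays was kept, leaving 22180 genes. No filter on low values was set, so all 44 members were tested. limma 3.58.1 in R 4.3.3 fitted 1 mean per group over all arrays (8 residual degrees of freedom) with 5 contrasts, and p-values were adjusted by Benjamini-Hochberg over all genes, with calls at 0.05. Intervals are at 95%. The fit was also run on simulated data with 1 spread per gene for all groups. That run did not test the unequal spread between groups described above. Any member could be named, with array values for called members at or above the median gene. Of each companion list, up to 3 called genes with the lowest p per contrast could be named, besides Prdm16, Adipoq and Fabp4. The members and lists were chosen with earlier results of these data known. The labels give no batch or date. The number of arrays limits the precision, and no depth applies. Comparisons that share a group share its arrays. Alternatives covered a replicate block, fitting only the groups compared, array weights, an intensity trend, quantile normalization, median centring, a filter on dim genes, averaging probe sets and leaving out each array. Leaving out both 4OHT_Rosi 3 and EtOH_Rosi 3 was added after seeing the data.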

Additional observations from a re-analysis of the deposited data

Results flagged for a closer look

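Among collagen genes and the genes that serve collagen, 2 passed the test of the interaction term of the limma fit, which compares the 4OHT difference with rosiglitazone to that without it. Both are companion genes and neither is a collagen. For Omd, a small leucine-rich proteoglycan, the interaction was 0.84 ± 0.13 (SE, adjusted p = 0.013). Omd read 4.31, 4.12 and 4.15 in 4OHT_Rosi and 4.32, 4.36 and 4.26 in EtOH_Rosi, against 4.32, 4.33 and 4.35 in 4OHT and 5.09, 5.25 and 5.55 in EtOH. The EtOH arrays stood above those of the other groups. Every array of those other groups lay below the 25th percentile of gene means (5.22), so for this dim probe set a further fall with 4OHT under rosiglitazone may not be measurable, and the interaction does not show that the responses differ in size. Without both 4OHT_Rosi 3 and EtOH_Rosi 3 its adjusted p was 0.0563. For Mmp13, a collagenase, the interaction was 1.01 ± 0.20 (adjusted p = 0.0367). Mmp13 read 5.89, 6.12 and 6.48 in 4OHT_Rosi and 5.70, 5.36 and 5.32 in EtOH_Rosi, against 6.44, 6.29 and 6.53 in 4OHT and 6.59, 6.68 and 6.91 in EtOH. It was higher by 0.70 in 4OHT_Rosi than in EtOH_Rosi (adjusted p = 0.00767) and differed by -0.31 between 4OHT and EtOH, not called (adjusted p = 0.309). Its interaction call was lost in 11 of 13 leave-out fits, namely without any 1 EtOH or 4OHT array, EtOH_Rosi 2, EtOH_Rosi 3, 4OHT_Rosi 2, 4OHT_Rosi 3 or both 4OHT_Rosi 3 and EtOH_Rosi 3 (values from 0.78 to 1.15, adjusted p up to 0.105).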

How the results depend on the processing

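Of 35 calls of a collagen gene in a comparison, in 21 genes, 27 passed the test under every alternative run, 8 lost the call under at least 1 and 0 turned direction. The 2 collagen genes lower in 4OHT than in EtOH became 1 with the replicate block, 9 when only the groups compared were fitted, 9 with array weights, 4 among genes at or above the 50th percentile, 1 with probe sets averaged and 7 without both 4OHT_Rosi 3 and EtOH_Rosi 3. Leaving out single arrays gave 0 to 3, with 0 without EtOH 2, EtOH 3 or any 4OHT array. Between 4OHT_Rosi and EtOH_Rosi, the 1 lower gene became 0 when only those groups were fitted, and the 0 higher genes became 1 without 4OHT_Rosi 1 (Col14a1 at 0.55, adjusted p = 0.0322, limma), with leave-one-out ranges of 1 to 1 and 0 to 1. The 2 genes higher with rosiglitazone after ethanol became 4 with median centring and 1 without both 4OHT_Rosi 3 and EtOH_Rosi 3, and leaving out single arrays gave 2 to 3. Genes lower with rosiglitazone numbered 14 to 17 after ethanol and 10 to 14 after 4OHT over those fits, and genes higher after 4OHT 2 to 3. With all probe sets averaged, Col5a1 stood at -0.25 after 4OHT and -0.37 after ethanol, still called. Over all genes, the 868 calls between 4OHT and EtOH became 2242 with array weights and 475 to 1059 without single arrays. The 1782 calls between 4OHT_Rosi and EtOH_Rosi became 829 when only those groups were fitted, 1020 without both 4OHT_Rosi 3 and EtOH_Rosi 3, and 1182 to 1712 without single arrays, the lowest without EtOH_Rosi 2. The 223 interaction calls became 116 with the block, 393 with an intensity trend, 396 with weights, 381 with the filter, 57 without both 4OHT_Rosi 3 and EtOH_Rosi 3 and 51 to 331 without single arrays. Samples with the same replicate number did not deviate together (0 of 18 pairs had a correlation over 0.1, range -0.24 to 0.08), so the numbers were not taken to pair the samples. The causes were not tested, apart from the number of genes or arrays that some alternatives reduce by construction. Dim probe sets limit what can be seen for 17 members below the median gene.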
